A study of Mus musculus with 4 samples.

Results

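The antioxidant and glutathione enzymes described here are 56 protein-coding mouse genes, chosen by gene name out of the 46603 genes of the deposited table. They are the superoxide dismutases and catalase, the glutathione peroxidases, the peroxiredoxins with sulfiredoxin, the thioredoxin system, the enzymes that make and recycle glutathione, the glutathione S-transferases, and the Nrf2 regulators with the target genes Nqo1 and Hmox1. The naming rule uses no measured value, although it was written with earlier results of these data known. The RNA was ventricular, from C57Bl6/J animals 8 to 12 weeks old. They were wild type (WT) or without P2Y6 (KO), a cell-surface receptor for the nucleotide UDP. Mice received daily intraperitoneal isoproterenol, an agonist of beta-adrenergic receptors, at 50 mg/kg/day for 7 days, or saline. The labels describe the KO mice only as P2Y6-null, and they do not state how many hearts went into a library. Each of the 4 groups (WT and KO, each with saline or isoproterenol) is 1 library, so no difference between a pair of libraries has a replicate check, and every interval below covers counting error only.

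Cells make superoxide and hydrogen peroxide as by-products of respiration and as products of oxidases, and in heart muscle, which is packed with mitochondria, respiration is a main source. Superoxide dismutases turn superoxide into hydrogen peroxide, which catalase splits. The glutathione peroxidases and the peroxiredoxins reduce hydrogen peroxide, drawing electrons from glutathione or thioredoxin and in the end from NADPH. Glutathione S-transferases join glutathione to reactive compounds, and the transcription factor Nrf2 (gene Nfe2l2), held back by Keap1, drives many of these genes through antioxidant response elements.

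Levels are given as the authors' deposited values in CPM (reads assigned to the gene, per 1000000 in that library). The libraries held 18771198 to 25637369 gene-assigned reads, as recovered from those values. P2ry6 itself stood at 5.11 CPM in WT saline, 5.89 in WT isoproterenol, 0.566 in KO saline and 0.533 in KO isoproterenol, in the direction of the labels. Genes of the mitochondrial genome took between 22.5% (KO isoproterenol) and 28.9% (WT isoproterenol) of the reads. Ratios between libraries were formed from whole reads after TMM scaling, which sets the bulk of genes at no change, with a 95% counting interval. A gene is called higher or lower when the whole interval lies beyond 1.5-fold, and it is said to differ beyond counting error when the interval leaves out no change. Of the 56 genes, 50 had a mean of at least 10 reads per library and were compared. Gpx2, Gpx5 and Gpx6 had 0 reads in all 4 libraries, which allows up to 0.160 CPM in the smallest library (3 reads), and Gsta2, Gstm3 and Gstt4 had means below the minimum.

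Together the 56 genes took 4256 CPM in WT saline, 4085 in WT isoproterenol, 4503 in KO saline and 4455 in KO isoproterenol. Levels per kilobase were taken over the exons of all annotated transcripts of a gene, merged. That length can exceed the transcript expressed, so the order of genes is only a rough guide. Sod2, for example, had the most reads, a mean of 10217, but ranked 14 over its 10008 bases of exon. Per kilobase, the mean over the 4 libraries was highest for Gpx4 (171 CPM per kb) and Prdx3 (164). Gpx4 is the peroxidase that reduces lipid peroxides in membranes, and Prdx3 is the mitochondrial peroxiredoxin. Gpx3 (123.1), Prdx5 (116), Mgst3 (113), Txnip (103), Gstm1 (98.0), Cat (90.4), Prdx1 (76.9), Prdx2 (73.6), Gsto1 (68.9) and Txn1 (47.9) came next. The leading gene differed in each library: Prdx3 in WT saline (162 CPM per kb), Gpx4 in WT isoproterenol (170), Txnip in KO saline (168) and Gpx3 in KO isoproterenol (244). Prdx3, Gpx4 and Txnip led by small margins, Txnip with 168 against 166 for Prdx3 in KO saline. Gpx3 led KO isoproterenol by more, with 244 against 191 for Gpx4. Txnip and Gpx3 each stood in the library they led well above their own levels in the other 3.

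**Figure D1:**
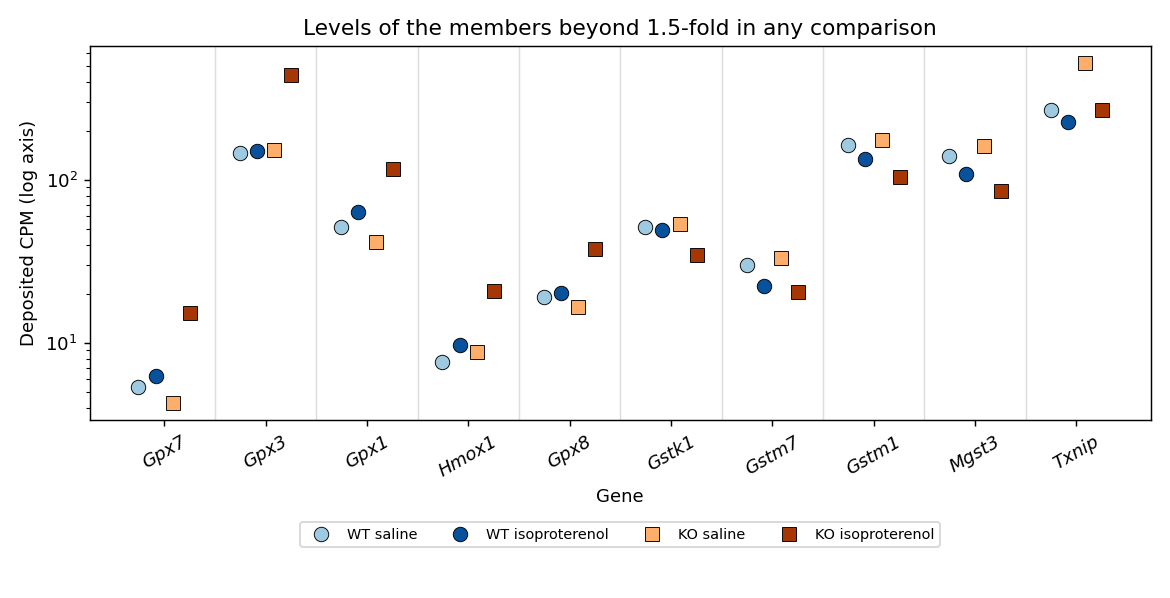
Deposited CPM (log axis) of the 10 genes called beyond 1.5-fold in at least 1 comparison, 1 point per library, circles for WT and squares for KO. The KO isoproterenol squares of Gpx1, Gpx3, Gpx7, Gpx8 and Hmox1 lie above their other 3 points, those of Gstk1, Gstm1, Gstm7 and Mgst3 lie below, and for Txnip the KO saline square is the high one.

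In WT mice none of the 50 genes was called between isoproterenol and saline, against 0.86% of all 14301 tested genes called higher and 0.797% called lower. Beyond counting error 12 of the 50 were higher and 15 lower, beside 15.3% and 16.1% of all genes, and the median log2 ratio was 0.00 both for the 50 and for all genes. In KO mice 5 of 50 were called higher (Gpx1, Gpx3, Gpx7, Gpx8, Hmox1) and 5 lower (Gstk1, Gstm1, Gstm7, Mgst3, Txnip). The background there was 7.09% of all genes higher and 4.22% lower, so the share called, 10% in each direction, was above that of all genes but rests on 5 genes each way. Beyond counting error 13 were higher and 27 lower in KO mice, beside 27.2% and 27.6% of all genes, and the median log2 ratio was -0.21 against -0.00 for all genes. The interval is narrower for a gene with more reads, which makes a call easier, and many of these enzymes are abundant transcripts.

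The glutathione peroxidases held 4 of the 5 genes called higher in KO mice, out of 5 compared. Gpx3, the secreted plasma glutathione peroxidase, was at 146 CPM in WT saline, 151 in WT isoproterenol, 153 in KO saline and 443 in KO isoproterenol. The saline libraries and WT isoproterenol were nearly level, and KO isoproterenol stood alone above them, 2.56-fold over KO saline (95% counting interval 2.46 to 2.66) and 2.54-fold over WT isoproterenol (2.44 to 2.65). Gpx1, the cytosolic and mitochondrial peroxidase found in most cells, was at 51.2, 63.6, 41.7 and 116 CPM in the same order. Its isoproterenol library was the higher in both genotypes, 1.31-fold in WT (1.21 to 1.42) and 2.46-fold in KO (2.28 to 2.66).

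Gpx7 and Gpx8 are the peroxidases of the endoplasmic reticulum and use cysteine in place of selenocysteine. Gpx7 was at 5.34 CPM in WT saline, 6.27 in WT isoproterenol, 4.27 in KO saline and 15.1 in KO isoproterenol. Gpx8 was at 19.0, 20.2, 16.7 and 37.9 CPM in that order. Both were highest in KO isoproterenol, 3.11-fold over KO saline for Gpx7 (2.48 to 3.97) and 2.0-fold for Gpx8 (1.77 to 2.28), while the WT ratios of 1.24 (0.968 to 1.59) and 1.12 (0.983 to 1.28) did not leave counting error. The family's remaining member, Gpx4, was at 274, 294, 279 and 329 CPM, a KO ratio of 1.04, with no comparable difference. Of the 50-base stretches of its transcripts 34.7% also occur in other annotated genes, chiefly the pseudogene Gpx4-ps2, so its reads may be split, whereas Gpx1, Gpx3, Gpx7 and Gpx8 share none.

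In the GRCm38 annotation these genes are scattered: Gpx1 lies at chr9:108338903-108340343, Gpx3 at chr11:54902453-54910377, Gpx7 at chr4:108400390-108406961 and Gpx8 at chr13:113042753-113046410. No gene of the set lies on chromosome 7, which carries P2ry6.

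The glutathione S-transferases leaned the other way in KO mice: 0 of 20 were called higher and 4 lower, with a median log2 ratio of -0.45, beside -0.21 and no call in WT. Mgst3 (chr1:167371966-167393841), a microsomal enzyme with glutathione transferase and peroxidase activity, was at 141 CPM in WT saline, 109 in WT isoproterenol, 161 in KO saline and 85.7 in KO isoproterenol. It was lower after isoproterenol in both genotypes, 1.22-fold in WT (1.16 to 1.29) and 2.13-fold in KO (2.01 to 2.26). Gstm1, a mu-class cytosolic transferase, was at 164, 134, 175 and 104 CPM, which is 1.16-fold lower in WT (1.10 to 1.21) and 1.90-fold lower in KO (1.80 to 2.01). Gstk1 (chr6:42245935-42250447), the kappa-class enzyme of mitochondria and peroxisomes, was at 51.4, 49.1, 53.4 and 34.5 CPM and so was low in 1 library only, 1.76-fold below KO saline (1.6 to 1.94). Gstm7 was at 29.8, 22.3, 33.0 and 20.4 CPM, 1.27-fold lower in WT (1.13 to 1.42) and 1.83-fold lower in KO (1.62 to 2.08).

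The mu-class genes sit side by side on chromosome 3 and did not move as a block. Gstm7 (chr3:107926334-107931817) and Gstm1 (chr3:108012255-108017973) were called, and Gstm2 was 1.5-fold lower in KO mice (1.39 to 1.62) and 1.31-fold lower in WT (1.21 to 1.41). Gstm5 and Gstm4, at the 2 ends of the cluster, had KO ratios of 1.10 (0.963 to 1.26) and 1.16 (0.962 to 1.41) on the higher side. Of the Gstm1 transcript sequence 18.9% occurs in other genes, Gstm2-ps1 and Gstm3 among them, so part of its reads could belong to a relative.

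One abundant transferase went against this lean. Gsto1, an omega-class enzyme that also reduces dehydroascorbate, was at 117 CPM in WT saline, 153 in WT isoproterenol, 116 in KO saline and 172 in KO isoproterenol. Both isoproterenol libraries were above both saline libraries, by 1.39-fold in WT (1.32 to 1.46) and 1.30-fold in KO (1.24 to 1.37). Gsta1 and Gsto2 showed WT ratios of 2.88-fold lower (1.22 to 9.15) and 2.92-fold lower (1.38 to 7.68), but at no more than 1.25 CPM in any library, and 90.5% of the Gsta1 transcript sequence is shared with relatives.

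**Figure D2:**
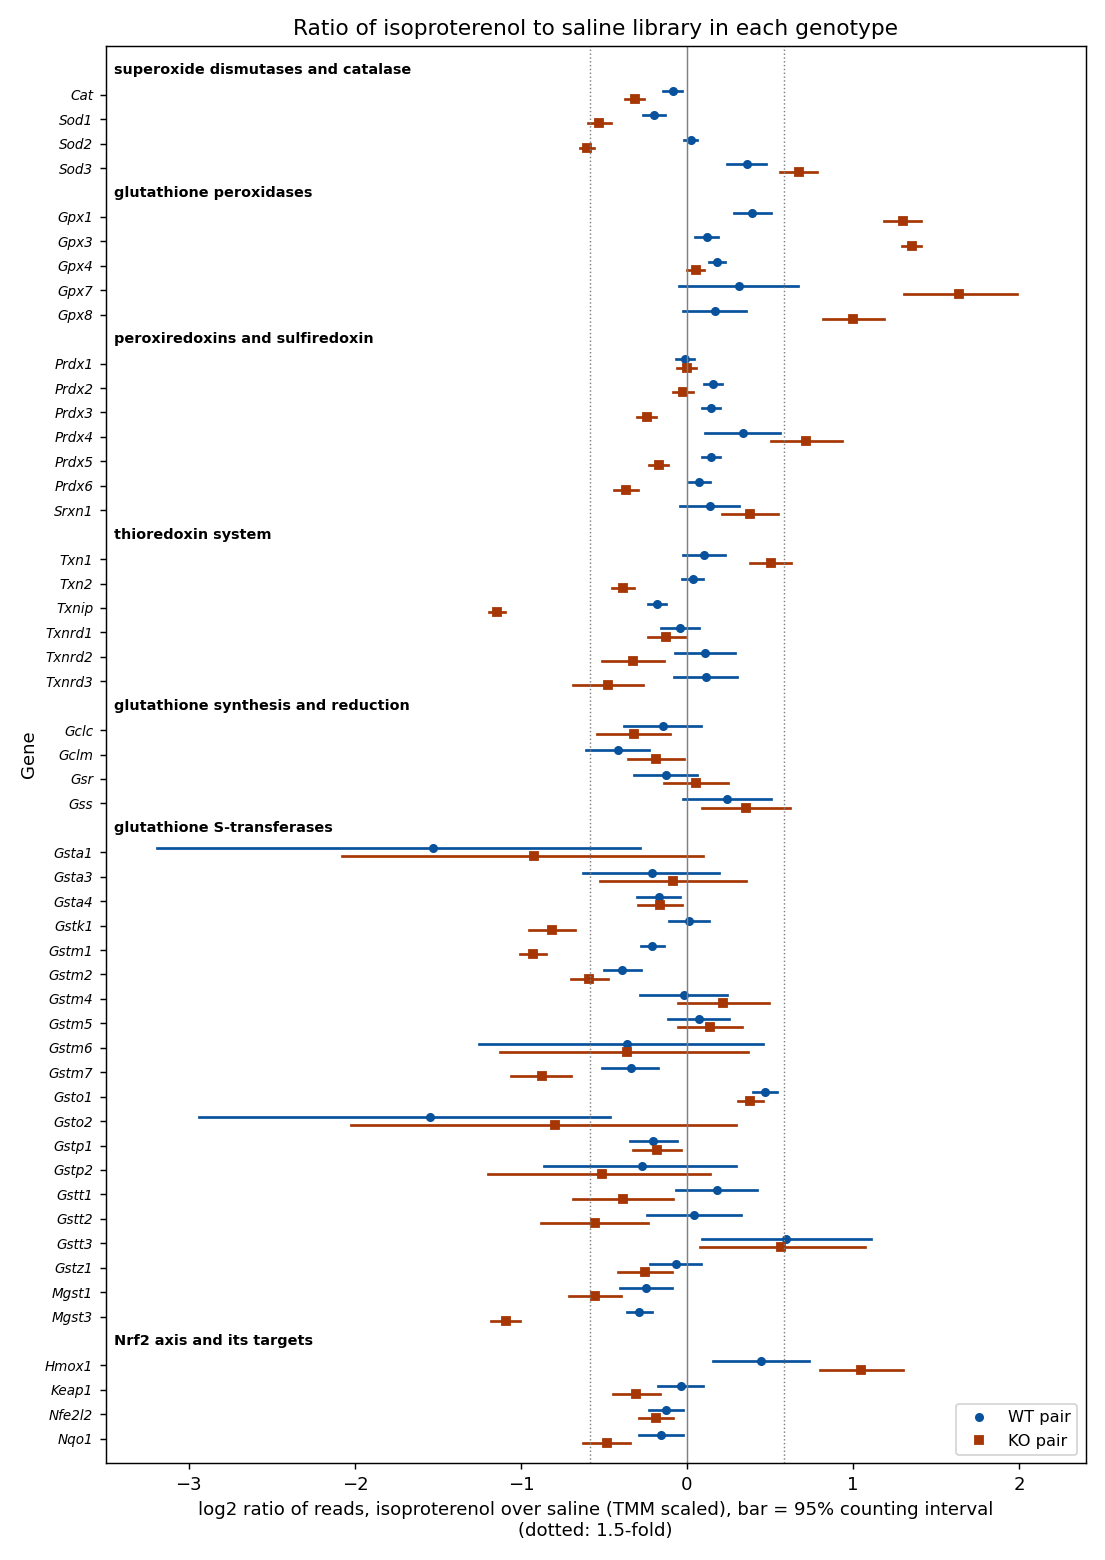
Log2 ratio of isoproterenol over saline for each compared gene in WT and in KO mice, after TMM scaling, with bars for 95% counting intervals and genes grouped by role. The KO points of Gpx1, Gpx3, Gpx7 and Gpx8 lie far to the right of the WT points, and those of Txnip, Mgst3, Gstm1 and Gstk1 to the left.

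In the thioredoxin system the gene that stood out was Txnip, whose product binds thioredoxin and blocks it, and which is known to respond to glucose. Txnip was at 270 CPM in WT saline, 226 in WT isoproterenol, 524 in KO saline and 269 in KO isoproterenol. The KO saline library was the high one, and the other 3 lay close together. It was accordingly 2.01-fold higher in KO than in WT saline (1.95 to 2.07), 2.21-fold lower after isoproterenol in KO mice (2.14 to 2.29), 1.13-fold lower in WT mice (1.09 to 1.18), and level between the genotypes under isoproterenol (1.03, 0.988 to 1.07). Txnip (chr3:96557957-96561883) overlaps the exons of Gm15441 on the opposite strand over 606 bases, but Gm15441 had at most 10 reads in a library.

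Thioredoxin itself, Txn1, was at 46.0, 46.8, 41.7 and 67.0 CPM, again with the WT pair first, highest in KO isoproterenol at 1.42-fold over KO saline (1.30 to 1.54). The mitochondrial thioredoxin Txn2 went the other way, 1.31-fold lower in KO mice (1.25 to 1.37). The reductases that recharge thioredoxin with NADPH, Txnrd1, Txnrd2 and Txnrd3, were 1.09-fold, 1.25-fold and 1.39-fold lower in KO mice, none of them called. For Txnrd1 the direction depends on scaling, since its deposited values were 61.2 CPM in KO saline and 63.7 in KO isoproterenol.

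No superoxide dismutase passed the threshold, and they did not share a direction. Sod2, the manganese enzyme of the mitochondrial matrix, was at 501, 482, 488 and 364 CPM, with KO isoproterenol alone low, 1.52-fold below KO saline (1.47 to 1.57). Of its transcript sequence 21% occurs in other genes. Sod1, the copper-zinc enzyme of the cytosol, was 1.15-fold lower in WT (1.09 to 1.20) and 1.44-fold lower in KO (1.37 to 1.51). Sod3, the secreted enzyme bound to the extracellular matrix, was at 46.1, 55.9, 46.8 and 84.5 CPM, 1.28-fold higher in WT (1.18 to 1.39) and 1.59-fold higher in KO (1.47 to 1.72). Catalase, the peroxisomal peroxide-splitting enzyme, was at 246, 219, 251 and 229 CPM, 1.06-fold lower in WT (1.02 to 1.10) and 1.24-fold lower in KO (1.20 to 1.30).

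The peroxiredoxins and sulfiredoxin gave no call among 7 genes, with median log2 ratios of 0.14 in WT and -0.03 in KO. Prdx3 was at 239, 250, 245 and 235 CPM, and Prdx5, found in mitochondria, peroxisomes and cytosol, at 256, 268, 233 and 235. The cytosolic Prdx1 was at 234, 219, 226 and 257 CPM and Prdx2, abundant in red cells, at 224, 236, 207 and 231. These 4 genes kept their 4 libraries within a narrow band. Prdx4, the peroxiredoxin of the secretory pathway, had the family's highest KO ratio, 1.65 (1.42 to 1.91), with 1.26 in WT, and sulfiredoxin Srxn1, which repairs over-oxidised peroxiredoxins, had a KO ratio of 1.30 (1.16 to 1.46).

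The glutathione-making genes showed no call. Gclm, the regulatory subunit of the rate-limiting ligase, was at 24.7, 17.5, 27.9 and 27.8 CPM, so WT isoproterenol was the low library, 1.33-fold below WT saline (1.17 to 1.52). The catalytic subunit Gclc ranged over the 4 libraries from 12.7 to 17.4 CPM, glutathione synthetase Gss from 9.54 to 13.9 and glutathione reductase Gsr from 18.9 to 23.2.

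The Nrf2 regulators were not called in any comparison. Nfe2l2 was at 77.1, 66.8, 75.0 and 74.8 CPM, 1.09-fold lower after isoproterenol in WT (1.02 to 1.17) and 1.14-fold lower in KO (1.06 to 1.22). Keap1 was at 41.5, 38.3, 41.8 and 38.4 CPM, with ratios of 1.03-fold lower in WT (0.936 to 1.13) and 1.24-fold lower in KO (1.12 to 1.36). Their 2 listed target genes diverged: Hmox1 (chr8:75093621-75100589), heme oxygenase 1, was at 7.57, 9.75, 8.80 and 20.7 CPM, whereas the quinone reductase Nqo1 was at 45.5, 38.7, 45.5 and 37.0. Hmox1 was highest in KO isoproterenol, 2.07-fold over KO saline (1.74 to 2.47) and 1.36-fold higher in WT (1.11 to 1.67), while Nqo1 was 1.11-fold lower in WT and 1.40-fold lower in KO (1.27 to 1.54).

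Between the genotypes under saline 1 of the 50 genes, Txnip, was called, beside 0.273% of all genes higher and 0.217% lower. Beyond counting error 14 were higher in KO and 3 lower, beside 11.2% and 10.2%. Under isoproterenol 3 were called higher in KO (Gpx3, Gpx7, Hmox1) and 0 lower, beside 4.2% and 1.8% of all genes. Beyond counting error 10 were higher and 19 lower, beside 22.8% and 22.2%. Gpx7 was 2.08-fold higher (1.69 to 2.58) and Hmox1 1.83-fold higher (1.54 to 2.18), and Gpx8 at 1.62 (1.43 to 1.83) and Gpx1 at 1.58 (1.48 to 1.69) fell short because their intervals reached below 1.5. Gstt1, at 1.70-fold lower in KO (1.39 to 2.09), and Gstk1, at 1.65-fold lower (1.49 to 1.82), also fell short.

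**Figure D3:**
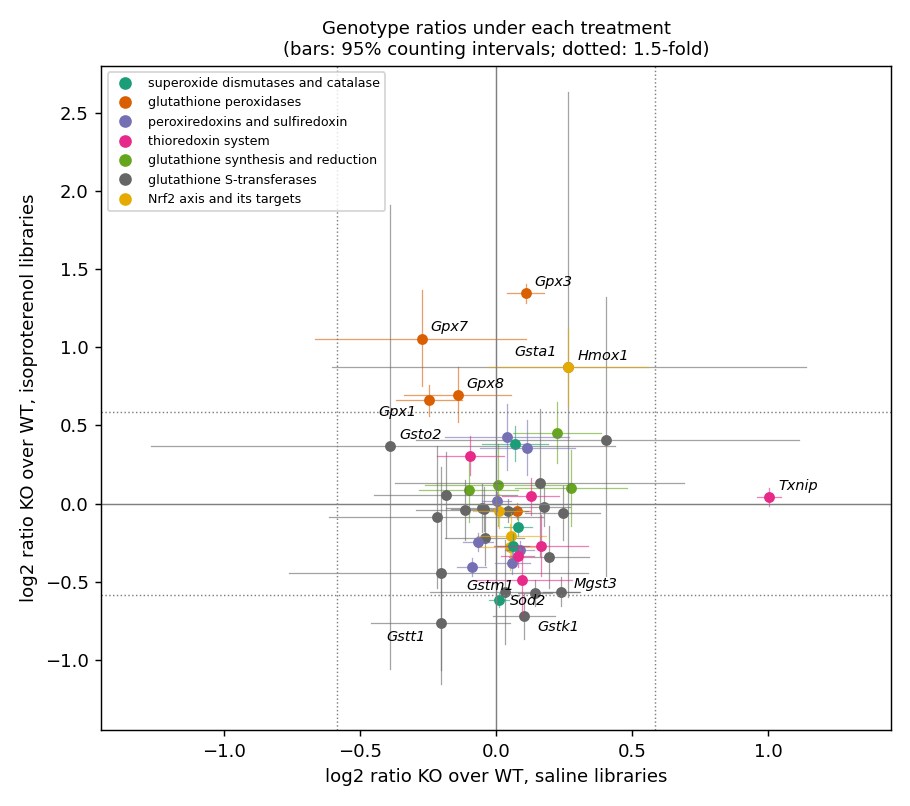
Log2 ratio of KO over WT in the saline libraries (horizontal) and in the isoproterenol libraries (vertical), 1 point per compared gene, bars for 95% counting intervals and dotted lines at 1.5-fold. Most genes lie near 0 on the horizontal axis, Txnip stands alone at the right, and the glutathione peroxidases Gpx1, Gpx3, Gpx7 and Gpx8 and Hmox1 stand at the top, with Gsta1, a gene of few reads and a wide interval, at the same place as Hmox1.

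The 2 isoproterenol responses share no library, so they were set side by side. Beyond counting error 8 of 50 genes were higher after isoproterenol in both genotypes (Gpx1, Gpx3, Gpx4, Gsto1, Gstt3, Hmox1, Prdx4, Sod3), beside 8.59% of all genes, and 13 were lower in both (Cat, Gclm, Gsta4, Gstm1, Gstm2, Gstm7, Gstp1, Mgst1, Mgst3, Nfe2l2, Nqo1, Sod1, Txnip), beside 11.0%. As a share of the 50 these were 16% and 26%. These lists depend on scaling. With CPM as deposited, without TMM, 8 were higher in both (16%), beside 7.05% of all genes, with Prdx2 in place of Gpx3. Lower in both were then 10 (20%), beside 10.6% of all genes. Gclm, Gsta4, Gstp1 and Nfe2l2 left that list and Sod2 joined it. The difference of the log2 responses, KO minus WT, was called higher for 3 genes and lower for 4, beside 3.83% and 1.73% of all genes. Higher were Gpx7 (1.33, 0.85 to 1.81), Gpx3 (1.23, 1.15 to 1.32) and Gpx1 (0.91, 0.75 to 1.06). Lower were Txnip (-0.96, -1.04 to -0.89), Gstk1 (-0.83, -1.01 to -0.64), Mgst3 (-0.80, -0.92 to -0.69) and Gstm1 (-0.72, -0.82 to -0.61). For the remaining genes the interval reached within 1.5-fold. Beyond counting error the difference was higher in KO for 8 genes and lower for 22, beside 18.9% and 20.4% of all genes.

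Scaling bears on these counts. With CPM used as deposited, without TMM, the median log2 ratio of all genes moves to 0.18 in the KO pair, 0.22 between the isoproterenol libraries and 0.26 for the difference, from about 0 in each. The share of all calls that were higher calls goes from 62.7% to 80.2%, from 69.9% to 90.3% and from 68.8% to 92.6%, and in the WT pair from 51.9% to 40.6%. In the KO pair Prdx4 and Sod3 are then added to the genes called higher, and Gstk1 and Gstm7 leave those called lower. Gpx1 and Gpx8 join the genes called higher between the isoproterenol libraries, and in the difference Gpx8 joins and only Txnip stays lower.

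The one test over samples that 4 libraries allow sets the 2 isoproterenol against the 2 saline libraries, with genotype as a term and 1 residual degree of freedom. That residual is the difference of responses between the genotypes, so no spread within a group enters the test. A gene that responds differently in the genotypes has a larger residual. In limma, however, each gene's variance is drawn towards a trend over all genes, so its SE rests in part on other genes. A small SE can therefore stand beside unlike responses. Those of Gpx1, for example, differed by 1.17 log2 with CPM as deposited. With limma on log2(CPM + 1), 1 of 50 genes passed for treatment, beside 2.57% of all genes: Gpx1, 0.88 log2 higher (SE 0.21), with a Benjamini-Hochberg adjusted p of 0.0297 and both isoproterenol libraries above both saline libraries. That adjusted p ran from 2.12e-05 to 0.268 over the alternatives, and edgeR, DESeq2 and limma on TMM-scaled values did not call the gene. At an unadjusted p under 0.05 limma found 13 of the 50 (26%), beside 13.0% of all genes. For genotype limma called 0 of 50, beside 0.0979% of all genes, with 3 (6%) at an unadjusted p under 0.05, beside 4.10% of all genes. With edgeR, DESeq2 and limma on TMM-scaled values 0 were called as well, whereas limma called Gpx3 with a pseudocount of 0.1 (adjusted p 0.0478) and with no filter (adjusted p 0.000644).

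Cell markers moved in the same libraries. In bulk tissue, fewer cells of a type and less RNA per cell cannot be told apart. Summed over 10 macrophage markers the level was 343 to 367 CPM in the first 3 libraries and 811 in KO isoproterenol, with 7 of 10 called higher in the KO pair and 1 of 10 in WT. The 10 fibroblast markers summed to 2741 CPM in WT saline, 2941 in WT isoproterenol, 2436 in KO saline and 4552 in KO isoproterenol, with 6 higher and 1 lower in the KO pair and 4 higher in WT. The matrix gene Col1a1 weighs heavily in that sum, at 132 CPM in KO saline and 1634 in KO isoproterenol. Gsn, the marker called lower, was at 1436 and 1020 CPM in the same libraries. The 10 cardiomyocyte markers, abundant in every library, summed to 91789, 81233, 90205 and 67287 CPM, with 6 lower in the KO pair and 1 in WT. KO isoproterenol, the library that sets the peroxidase, Hmox1 and transferase values above, thus also had the highest summed macrophage and fibroblast markers. Its summed cardiomyocyte markers were the lowest, and the part of these markers in those results was not tested. Endothelial markers summed to 1237 to 1378 CPM with 0 of 8 called, and erythrocyte markers to 218 to 362 CPM with 0 of 7 called in either pair. Adipocyte markers summed to 42.4 to 91.2 CPM with 1 of 6 higher in each pair, Lep being at 0 in a library. Between the genotypes under saline, 2 of 6 adipocyte markers were called lower in KO (median log2 ratio -0.96) and 1 of 7 erythrocyte markers (-0.27), with no call among the other 4 marker lists. Under isoproterenol KO was lower in 3 of 6 adipocyte markers (-1.33), 2 of 7 erythrocyte markers (-0.58) and 6 of 10 cardiomyocyte markers (-0.63). In the same comparison 7 of 10 macrophage markers were higher (1.10), and fibroblast markers had 3 higher and 1 lower of 10 (0.45). The part of these markers in the genotype values of Txnip, Gpx3, Gpx7 and Hmox1 was not tested.

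Related pathways held between 1 and 5 called genes each in the KO pair, to be read beside the 7.09% and 4.22% of all genes given above. Of 13 compared genes whose products make superoxide or hydrogen peroxide, 4 were higher and 1 lower in KO mice after isoproterenol, with a median log2 ratio of 0.66, and none was called in WT. The phagocyte oxidase subunits Cybb (1.93-fold, 1.69 to 2.20), Ncf1 (2.30-fold, 1.78 to 3.02) and Ncf4 (2.53-fold, 1.73 to 3.84) and the oxidase Nox4 (2.67-fold, 2.0 to 3.62) were the higher ones, and Maob, a mitochondrial monoamine oxidase, was 1.68-fold lower (1.52 to 1.85). Cybb, Ncf1 and Ncf4 are known from macrophages and neutrophils, and the macrophage markers above were higher in the same library.

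The supply of NADPH had 1 gene higher and 2 lower of 14 in KO mice (median log2 ratio -0.22) and none called in WT. Idh2 was 2.07-fold lower (2.03 to 2.11) and Nnt 2.07-fold lower (2.0 to 2.14), both enzymes that make NADPH inside mitochondria, and the folate enzyme Mthfd2 was 3.21-fold higher (2.46 to 4.25). C57BL/6J mice are known for an internal deletion in Nnt, which reads summed over the gene do not show. Among 13 genes of glutathione supply and breakdown, the amino acid carrier Slc1a4 was 2.93-fold higher (2.18 to 4.03) and the dipeptidase Dpep2 3.40-fold higher (2.37 to 5.05), with 0 lower, a median of -0.10 and no call in WT.

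Of 23 other Nrf2 targets and partners, 2 were higher and 1 lower in KO mice, with a median log2 ratio of -0.00. These were Ftl1, ferritin light chain (1.84-fold, 1.76 to 1.93), the aldo-keto reductase Akr1b8 (5.28-fold, 4.01 to 7.16, and 2.0-fold in WT, 1.53 to 2.64) and, lower, the aldehyde oxidase Aox1 (1.82-fold, 1.64 to 2.04). Among 17 glutaredoxins, thioredoxin relatives, methionine sulfoxide reductases and sestrins, Txndc5, a disulfide isomerase, was 1.92-fold higher in KO mice (1.79 to 2.07), and the list's median was 0.06. The selenoprotein Msrb1, which repairs oxidised methionine, was higher in both genotypes, 1.61-fold in KO (1.52 to 1.70) and 1.88-fold in WT (1.78 to 1.99). Of 16 other genes of selenoproteins and of the selenocysteine machinery, 1 was higher in KO mice, Selm, at 2.13-fold (1.87 to 2.42). None was lower, and none was called in WT.

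The 12 metal-handling and scavenger genes gave 4 higher in KO mice (median 0.27) and 2 in WT, with 0 lower. Metallothionein Mt2 was higher in both, 1.99-fold in KO (1.75 to 2.28) and 2.99-fold in WT (2.64 to 3.39), and Mt1 was 1.69-fold higher in WT (1.59 to 1.80). Apoe (2.11-fold), the haemoglobin-binding Hp (4.51-fold) and Pon2 (1.81-fold) were called higher in KO and not in WT. Of 11 genes in a list drawn up for relatives of the transferases, Hpgds, Clic1 and Clic5 were higher and Ptgds lower in KO mice (median 0.54). None was called in WT. Ptgds itself is of the lipocalin family and is no relative of the transferases. It was also 1.63-fold higher in KO than in WT saline (1.57 to 1.69), the only gene of these 8 pathway lists called under saline.

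**Figure D4:**
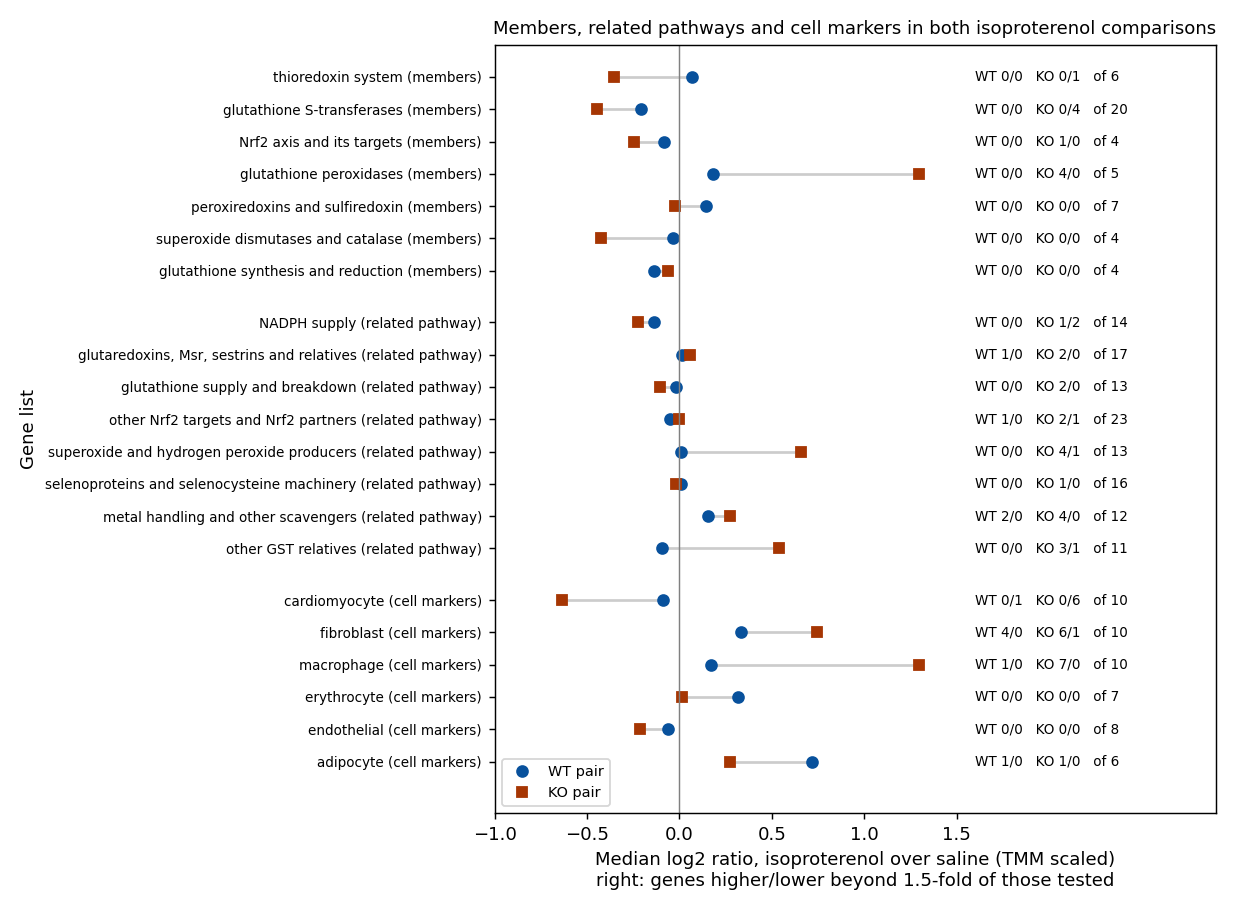
Median log2 ratio of isoproterenol over saline in WT and KO mice for each family of antioxidant genes, each related pathway and each cell marker list, with the numbers called higher and lower beyond 1.5-fold at the right. The glutathione peroxidases and the macrophage markers show the highest KO medians (both 1.30), and the cardiomyocyte markers the lowest (-0.63).

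The promoters were read for the core of the antioxidant response element, through which Nrf2 acts, to see whether its presence went with the responses. The letters TGACNNNGC were searched on both strands in RefSeq windows of 300 bases (250 before to 50 after the start, GRCm38.p6). Of the 49 genes with a window 10 held a match (20.4%), beside 3781 of 27025 genes in all (14.0%). Some genes have several windows, and per window the shares were 15.9% and 12.4%. The sequences below show the match in capitals, 5' to 3' on the gene's strand, in 4 genes that stand for the synthesis, peroxiredoxin, reductase and dismutase families: Gclm at chr3:122245407-122245447, Prdx1 at chr4:116685450-116685490, Txnrd1 at chr10:82859098-82859138 and Sod1 at chr16:90220690-90220730, all on the plus strand.
Gclm: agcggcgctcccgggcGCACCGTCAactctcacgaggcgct
Prdx1: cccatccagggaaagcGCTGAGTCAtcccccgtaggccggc
Txnrd1: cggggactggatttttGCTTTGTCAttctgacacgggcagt
Sod1: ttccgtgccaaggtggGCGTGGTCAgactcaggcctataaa
All 4 matches lie on the opposite strand, and the one in Prdx1 overlaps the AP-1 motif TGACTCA. In KO mice the 10 genes with a match had a median log2 response of -0.15 (range -0.88 to 0.38), with 0 called higher and Gstm7 lower. The shares of all genes called there were 7.09% and 4.22%. In WT the 10 genes had a median of -0.16 (-0.41 to 0.14) with 0 called, beside 0.86% and 0.797% of all genes. The median of all 50 compared genes was -0.21 in KO mice and 0.00 in WT. None of the 4 called peroxidases held the letters in its window, and Hmox1 was among the 7 genes with no window. An element farther from the start than these windows reach would not be seen, so a window without the letters does not show that a gene lacks the element.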

How the data were processed

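Strand-specific polyA RNA libraries, 1 per group, were counted per gene with HTSeq on GRCm38.p4 (mm10), per the submitters' processing notes; aligner and annotation: not given in the sources used here. The authors deposited CPM (reads per 1000000) per gene. Columns headed by genotype alone were taken as the saline libraries. Each column was divided by the CPM of 1 read, estimated from the column's own values, which gave whole reads for 100% of values above 0 (within 0.01 read). Library totals are the sums of these recovered reads and were not checked against reported depths. Because the unit is CPM, the additive test was limma 3.58.1 with trend on log2(CPM + 1), Benjamini-Hochberg adjusted over 14301 genes; edgeR 4.0.16 quasi-likelihood on the recovered reads called 22 genes for treatment and 3 for genotype, and DESeq2 1.42.0 called 174 and 13. Ratios used TMM factors of 0.946 to 1.10, a prior of 0.5 reads and exact conditional (Clopper-Pearson) intervals, with a normal interval for the difference of responses. One read is worth 0.0390 to 0.0533 CPM. Intervals cover counting error only, with every read taken as independent. With PCR and no molecular identifiers, copies of a molecule are not set apart, so the intervals may be too narrow.

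Exon lengths, 50-base matches and overlaps came from GENCODE M21; the strand setting of counting is not given, so reads of overlapping antisense genes may be shared. Full values are given for genes called in any comparison, the 12 highest per kilobase, and Nfe2l2 and Keap1; others by range or count, with some named after their values were seen. The genes and lists were chosen with earlier results of these data known. The calculations were tested on simulated data. Nothing in the labels says whether a library is 1 heart or a pool. With 1 library per group, the residual behind the p-values is the genotype-by-treatment interaction, so they measure no spread between animals or within a group. In limma the variance of each gene is also drawn towards a trend over all genes.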

Additional observations from a re-analysis of the deposited data

Results flagged for a closer look

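In 3 of the 50 genes (6%) the response to isoproterenol had opposite signs in the 2 genotypes, each beyond counting error, beside 536 of all 14301 genes (3.75%); the difference was not tested, since each group is 1 library. Prdx5 had a log2 ratio of 0.14 in WT and -0.17 in KO. Prdx3 had 0.14 in WT and -0.24 in KO. Prdx6, the peroxiredoxin with a single active cysteine, had 0.0746 in WT and -0.37 in KO. None of these ratios passed 1.5-fold, and the signs depend on scaling: with CPM as deposited the values were 0.06 and 0.01 for Prdx5, 0.06 and -0.06 for Prdx3, and -0.01 and -0.18 for Prdx6, and the genes opposite in sign beyond counting error were then Gsr, Prdx1 and Prdx3, again 6% of the 50, but beside 977 of all genes (6.83%), so the share lay above that of all genes with TMM and below it without.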

How the results depend on the processing

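With CPM as deposited in place of TMM, 3 in place of 5 genes were lower in the KO pair, 5 in place of 3 were higher between the isoproterenol libraries, and the difference of responses had 1 lower in place of 4, beside 2.50%, 7.30% and 0.594% of all genes; the numbers of higher calls in the KO pair (7) and the difference (4) stayed within 1.5 times. The member medians between the isoproterenol libraries and for the difference then changed sign, from -0.04 to 0.17 and from -0.11 to 0.15. With a 2-fold threshold the KO pair had 3 higher and 2 lower (3.60% and 1.30% of all genes), the isoproterenol libraries 1 higher (1.55%), the saline libraries 0 higher (0.112%), and the difference 1 higher and 0 lower (1.52% and 0.329%), as a stricter threshold must give no more calls. DESeq2 size factors, TMM without mitochondrial genes and no filter left the numbers of called genes as they were. In the additive fit, treatment called 5 of 50 genes with a pseudocount of 0.1 (4.52% of all genes), 6 of 53 with no filter (3.98%), and 0 with TMM scaling (0.00699%), edgeR (0.154%) or DESeq2 (1.22%), in place of 1 (2.57%). Genotype called 1 with a pseudocount of 0.1 (0.420%) and 1 with no filter (0.804%), Gpx3 in both, in place of 0 (0.0979%). The cause was not tested. No paired analysis was possible because each group holds 1 library. Depth limits the genes of few reads: Gsta1 and Gsto2 have wide intervals.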
